A study of Arabidopsis thaliana with 8 samples.

Results

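The genotype difference in the salt response was described across the Arabidopsis transcriptome: for each locus, the change that NaCl brought in the mutant lsm8-1 minus the change it brought in the accession Col-0. Members were all loci with 5 CPM or more (counts per 1e6 reads, TMM-scaled) in at least 1 of the 4 salt libraries, after the counts of the transcript models of a locus were summed. This held for 15308 of the 25944 loci with any read in the salt experiment and of the 26547 with any read in the series. The difference was taken on log2(CPM + 1), where 1 is a 2-fold difference between the genotypes and a positive value means that lsm8-1 was more induced or less repressed. Of the 15308 loci, 638 differed by 2-fold or more, and these were sorted by which genotype responded and in which direction.

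All 4 libraries came from 2-week-old plants grown in long days on plates of 0.5X GM medium, with a light level of 90 µmol m-2 s-1. The groups were Col-0 on GM, lsm8-1 on GM, Col-0 moved to plates with 150 mM NaCl for 10 h, and lsm8-1 given the same NaCl treatment, with 1 library each. The other 4 libraries of the series, both genotypes in soil at 20 °C and after 24 h at 4 °C, are used here only beside the salt values. No value below has a replicate spread beside it, so sizes are given with exact 95% intervals that cover counting error only, and no test was made.

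LSM8 is the subunit that sets the nuclear LSM2-8 ring apart from the cytoplasmic LSM1-7 ring. The nuclear ring binds U6 small nuclear RNA and takes part in pre-mRNA splicing, while the cytoplasmic ring takes part in decapping and decay of mRNA. Salt raises abscisic acid (ABA) in plants. The hormone binds PYR/PYL receptors, which block PP2C phosphatases and so release SnRK2 kinases and the ABF transcription factors that switch on protective proteins such as dehydrins, LEA proteins and enzymes of compatible solutes.

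Each library held 33.4 to 34.0 M counted reads (M, 1e6 reads), and TMM factors lay between 0.938 and 1.06. LSM8 (AT1G65700, chromosome 1) went from 7.80 CPM on GM to 5.78 with NaCl in Col-0, and from 1.62 to 0.873 CPM in lsm8-1. It was thus lower in lsm8-1 on both plates, and its difference in salt response was -0.11 with a ratio of ratios of 0.727 (0.429 to 1.22). Although the tissue is labelled as leaf, 10 of 12 root markers reached 5 CPM in the salt experiment, and 4 of these 10 did so in the soil libraries. The summed level of the 12 was 7588 CPM in Col-0 and 4953 CPM in lsm8-1 on GM, and 2975 and 2337 CPM with NaCl. PYK10 (AT3G09260), the beta-glucosidase that fills the ER bodies of roots, made up most of it, and the other 9 that reached 5 CPM summed to 582 and 485 CPM on GM, and to 277 and 327 CPM with NaCl. The 22 light harvesting and Rubisco small subunit genes summed to 65962 and 99605 CPM on GM, and to 50679 and 85856 CPM with NaCl. Markers of root and of leaf tissue thus differed between the libraries, and their part in the results below was not tested. Fewer cells of a type and less RNA per cell cannot be told apart in such libraries.

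Most of the salt response was shared by the genotypes. In Col-0, 1622 loci were at least 2-fold higher with NaCl (10.6% of the 15308) and 1246 at least 2-fold lower (8.14%). In lsm8-1, 1625 were higher (10.6%) and 1106 lower (7.22%). Of the 1622 loci higher in Col-0, 1275 (78.6%) were also at least 2-fold higher in lsm8-1. Of the 1246 lower in Col-0, 762 (61.2%) were also at least 2-fold lower in lsm8-1. Of the 3560 loci past 2-fold in either genotype, 3003 (84.4%) differed by less than 2-fold between the genotypes, against 14670 (95.8%) of all 15308 loci. The median difference over all 15308 loci was -0.01 with an SD across loci of 0.445 (log2), and the median size was 0.213.

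**Figure D1:**
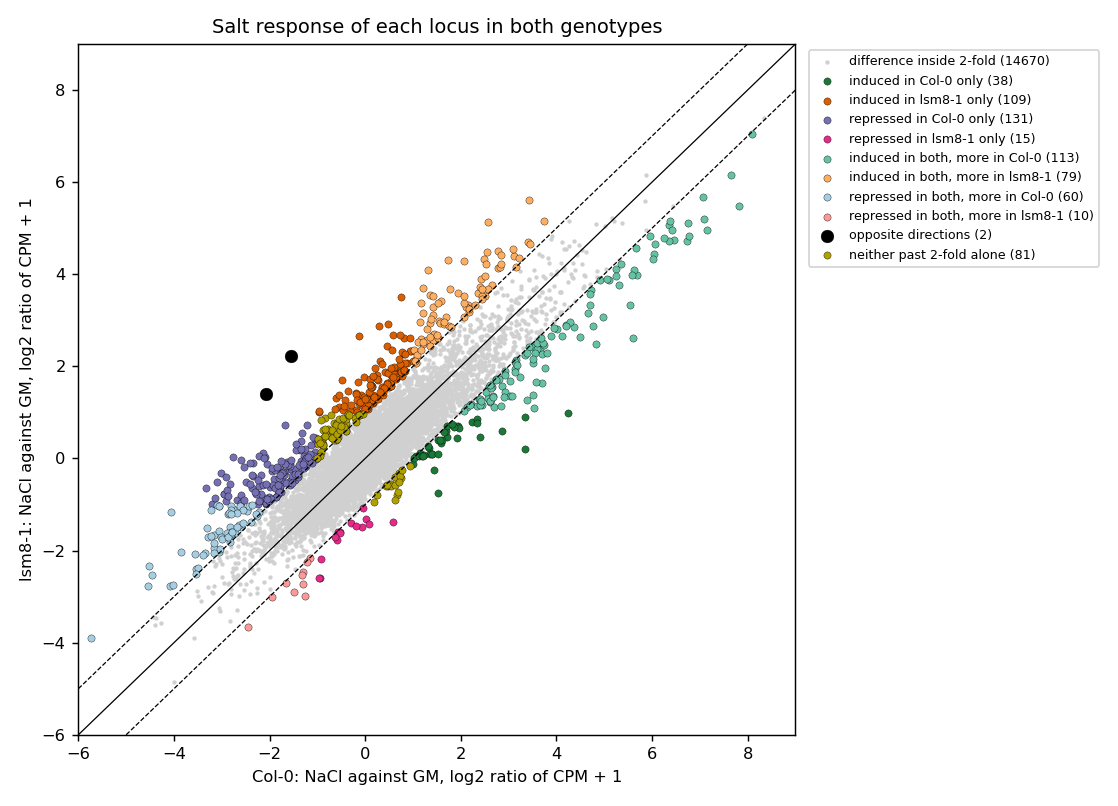
Salt response of each of the 15308 loci, as the log2 ratio of NaCl to GM (CPM + 1) in Col-0 on the x axis and in lsm8-1 on the y axis. The solid line marks equal responses and the dashed lines a 2-fold difference. The 638 coloured loci outside the dashed lines are sorted by class, and the 2 black points, induced in lsm8-1 and repressed in Col-0, lie apart from the rest.

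The difference was 1 or more at 441 loci (2.88%) and -1 or less at 197 (1.29%). Among loci that responded in a single genotype, 131 were repressed only in Col-0 and 109 induced only in lsm8-1, against 38 induced only in Col-0 and 15 repressed only in lsm8-1. With the other genotype held inside 0.5 (log2) these 4 counts were 77, 65, 23 and 6, so a large part of these classes also moved by more than that in the other genotype. Among loci induced in both genotypes, 113 rose more in Col-0 and 79 more in lsm8-1. Among loci repressed in both, 60 fell more in Col-0 and 10 more in lsm8-1. A further 2 went in opposite directions past 2-fold in each, and 81 differed by 2-fold although neither response alone reached it. At the limits, AT1G60060 with 1.0004 and AT3G15350 with -1.0031 lay just past it, and AT4G01350 with 0.9998 and UBP12 with -0.9978 just inside.

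The counts depended on how low values were treated. At a pseudocount of 5 CPM in place of 1, 201 and 85 loci passed the limits. Without a pseudocount, the interval of the ratio of ratios lay on the same side of 1 as the difference for 416 of the 441 and 188 of the 197 loci. It held 1 for 17 and 8, and for the F-box gene AT5G55150, named after its values were seen, it lay on the other side (0.334, 0.0884 to 0.893). Another 7 and 1 had a library with no read. When loci also had to reach 5 CPM in at least 1 soil library, a choice made after seeing the data, 12212 loci were left, with 162 (1.33%) at 1 or more and 124 (1.02%) at -1 or less.

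The same difference can be read as a genotype difference that is not equal on the plates. Of the 441 loci with a higher salt ratio in lsm8-1, 160 differed 2-fold between the genotypes only with NaCl, 104 only on GM, 34 on both and 143 on neither. At 264 of them lsm8-1 was lower than Col-0 on GM and higher with NaCl. Of the 197 with a lower ratio, 79 differed only with NaCl, 35 only on GM, 14 on both and 69 on neither, and at 123 lsm8-1 was higher on GM and lower with NaCl. These values describe the chosen loci only, since the difference that chose them is the NaCl value minus the GM value.

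**Figure D2:**
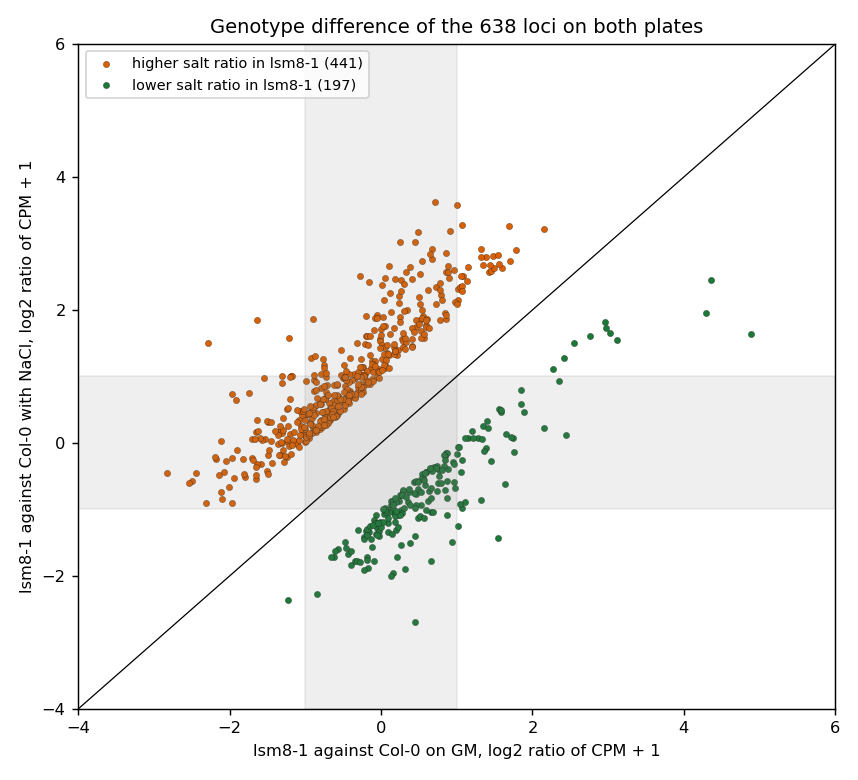
Genotype difference (lsm8-1 against Col-0, log2 ratio of CPM + 1) on GM on the x axis and with NaCl on the y axis, for the 441 loci with a higher salt ratio in lsm8-1 and the 197 with a lower one. The grey bands mark genotype differences under 2-fold, and the line marks an equal difference on both plates. Points off the left band edge started lower in lsm8-1 on GM, and points above the upper band edge ended higher with NaCl.

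Most genes of the ABA and osmotic response rose in both genotypes, and less in lsm8-1. All 23 listed genes at 5 CPM were induced 2-fold in Col-0 and 21 in lsm8-1, with a median response of 4.07 (log2) against 3.27. The difference was -1 or less for 9 of 23 and 1 or more for 0, where 1.29% and 2.88% of all loci passed, and it was below 0 for 22 of 23 with a median of -0.96. On GM the median genotype difference of the list was 0.12, and with NaCl it was -0.82. LEA4-5 (AT5G06760), a late embryogenesis abundant protein, went from 4.47 to 747 CPM in Col-0 and from 6.13 to 262 CPM in lsm8-1. Its level was similar on GM and lower in lsm8-1 with NaCl, which gave a difference of -1.89 and a ratio of ratios of 0.256 (0.205 to 0.319). LTI65 (AT5G52300, also called RD29B, a classical ABA reporter gene) went from 1.22 to 143 CPM in Col-0 and from 0.890 to 37.3 CPM in lsm8-1, a difference of -1.68. The dehydrin gene LTI30 (AT3G50970) went from 52.4 to 1103 CPM in Col-0 and from 45.9 to 336 CPM in lsm8-1 (-1.52). Of the other members past the limit, RAB18 had -1.49, KIN1 -1.47, ERD10 -1.45, the homeobox gene HB-12 -1.33, the chloroplast protein gene COR15A -1.06 and the lipid transfer protein gene LTP3 -1.04. LTP3 was the exception in level, at 1671 CPM in Col-0 and 2915 CPM in lsm8-1 with NaCl, and it started at 5.16 against 21.2 CPM. NAC3 (AT3G15500), with 0.39, was the member above 0, and RD22 (-0.15) and KIN2 (-0.05) responded nearly alike. RAB18 has an overlapping gene on the other strand, and whether the reads kept their strand is not stated.

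**Figure D3:**
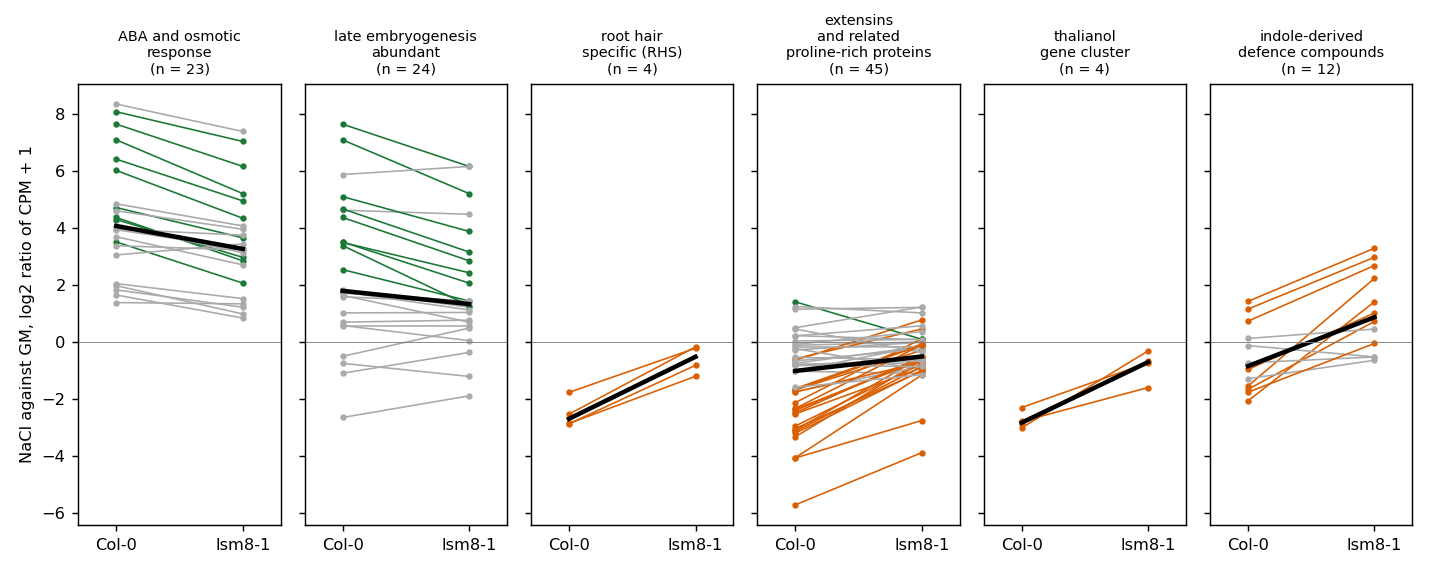
Salt response (NaCl against GM, log2 ratio of CPM + 1) in Col-0 and in lsm8-1 for the members of 1 gene list and 5 families at 5 CPM or more, with a line per gene and the median in black. Green lines have a difference of -1 or less, orange lines 1 or more, grey lines neither. The medians of the ABA and osmotic list go from 4.07 to 3.27, while those of the root hair genes go from -2.70 to -0.52 and those of the indole-derived defence genes from -0.85 to 0.87.

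The wider family of LEA and dehydrin genes was grouped by annotation after its values were seen. Of its 24 genes at 5 CPM, 5 (RAB18, ERD10, LTI30, LEA4-5 and ERD14) are also in the list above. Of the other 19, 5 had a difference of -1 or less and 0 of 1 or more (1.29% and 2.88% of all loci), and 12 were below 0 and 7 above, with a median of -0.28. AT2G42560 went from 1.94 to 29.7 CPM in Col-0 and from 2.29 to 6.92 CPM in lsm8-1 (-2.11), AT5G66780 had -1.52 and AT3G17520 -1.22. LEA14 (AT1G01470) rose from 78.9 to 898 CPM in Col-0 and from 86.6 to 470 CPM in lsm8-1 (-1.07). Over all 24 genes the median was -0.57, and the highest value was 0.99.

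Of 24 genes that make, sense and transmit ABA, 7 had a difference of -1 or less (1.29% of all loci) and 1 had 1 or more (2.88%). In all, 17 were below 0 and 7 above, with a median of -0.54. NCED3 (AT3G14440), which catalyses the rate-limiting step of ABA synthesis, went from 6.09 to 282 CPM in Col-0 and from 12.9 to 188 CPM in lsm8-1. It started higher and ended lower in the mutant, a difference of -1.55 and a ratio of ratios of 0.316 (0.265 to 0.375). The PP2C phosphatase gene HAI1 (AT5G59220), whose product holds ABA signalling in check, went from 2.38 to 370 CPM in Col-0 and from 5.94 to 195 CPM in lsm8-1 (-1.96). The related phosphatase genes HAI3 (-1.70), HAI2 (-1.29), ABI2 (-1.09) and HAB1 (-1.03) and the transcription factor gene ABF3 (-1.1) moved likewise, each higher in lsm8-1 on GM and lower with NaCl. The receptor gene PYL6 (AT2G40330) fell from 19.5 to 1.08 CPM in Col-0 and from 7.12 to 1.47 CPM in lsm8-1 (1.58). The other listed receptor genes stayed inside 2-fold, PYL5 with 0.92, PYL4 with 0.88 and PYR1 with 0.47. ABF3 has an overlapping opposite-strand gene.

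Compatible solute genes held the most negative difference of any list member. GolS4 (AT1G60470), a galactinol synthase that starts raffinose synthesis, went from 2.35 to 161 CPM in Col-0 and from 8.77 to 58.9 CPM in lsm8-1, a difference of -2.98 and a ratio of ratios of 0.0981 (0.0752 to 0.127). GolS2 (AT1G56600) went from 0.580 to 166 CPM in Col-0 and from 2.41 to 89.3 CPM in lsm8-1 (-2.0). GolS1 (AT2G47180) was induced in Col-0 only, from 5.19 to 22.6 CPM, against 8.48 to 11.9 CPM in lsm8-1 (-1.49). P5CS1 (AT2G39800), the salt-inducible enzyme of proline synthesis, rose from 0.638 to 20.8 CPM in Col-0 and from 2.03 to 15.7 CPM in lsm8-1 (-1.28). Thus 4 of 12 listed genes had -1 or less (1.29% of all loci). The other 8 stayed inside 2-fold, and the list median was -0.40. GolS4, GolS1 and P5CS1 overlap opposite-strand genes.

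Of the 11 heat shock and chaperone genes, 3 had a difference of -1 or less (1.29% of all loci) and 0 of 1 or more (2.88%). In all, 8 were below 0 and 3 above, up to 0.74. The small heat shock protein gene ATHSP22.0 (AT4G10250) went from 0.0580 to 48.6 CPM in Col-0 and from 0.318 to 12.4 CPM in lsm8-1 (-2.21). HSP17.6A had -1.35, and HSP70 (AT3G12580) went from 58.3 to 915 CPM in Col-0 and from 69.0 to 499 CPM in lsm8-1 (-1.11). WRKY46 (AT2G46400, -1.1) was the 1 of 16 early stress transcription factor genes past the limit (-1 or less for 1.29% of all loci). All 16 were induced in both genotypes, with a median difference of 0.00.

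Among the 38 loci induced in Col-0 only, the difference was led by genes of several families. AT2G18193, a P-loop nucleoside triphosphatase by annotation, went from 5.11 to 114 CPM in Col-0 and from 179 to 357 CPM in lsm8-1. It was higher in lsm8-1 on both plates, and its response of 0.99 in lsm8-1 fell just short of 2-fold, for a difference of -3.25. The UDP-glycosyltransferase gene AT2G22590 rose from 3.16 to 41.0 CPM in Col-0 and stayed at 4.67 and 5.51 CPM in lsm8-1, a difference of -3.14 and a ratio of ratios of 0.0909 (0.0672 to 0.123). The RING/U-box gene AT1G24580 rose from 1.80 to 27.4 CPM in Col-0 and from 3.43 to 7.31 CPM in lsm8-1 (-2.43). Its rise in lsm8-1 was inside 2-fold only with the pseudocount. EXPA10 (AT1G26770, an expansin that loosens cell walls) rose from 30.5 to 89.4 CPM in Col-0 and went from 62.8 to 36.8 CPM in lsm8-1 (-2.28). AT4G33070, a pyruvate decarboxylase by annotation, an enzyme class of ethanol fermentation, rose from 9.05 to 71.7 CPM in Col-0 and from 30.4 to 46.3 CPM in lsm8-1 (-2.26). AT2G22590 and AT1G24580 differed mainly with NaCl, while AT2G18193 and AT4G33070 were already higher in lsm8-1 on GM.

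**Figure D4:**
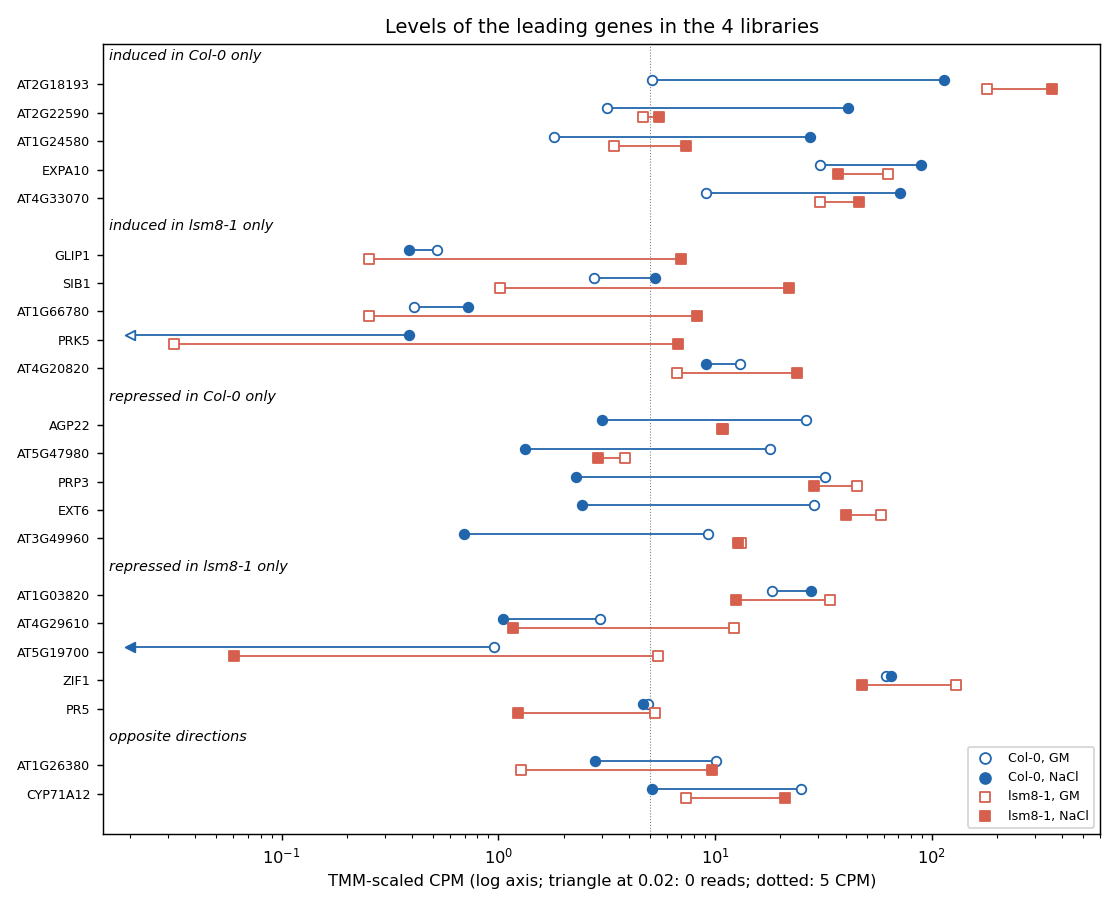
TMM-scaled CPM in the 4 libraries (log axis) of the 5 leading loci of each class that responded in a single genotype and of the 2 loci with opposite directions. Open symbols are GM and filled symbols NaCl, with circles for Col-0 and squares for lsm8-1, and levels are to be compared along a row only. AGP22 and AT3G49960 lie nearly on 1 point in lsm8-1 and fall in Col-0, and the 2 loci at the bottom swap order between GM and NaCl.

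The largest class, 131 loci repressed in Col-0 only, made up 0.856% of all loci. It held 3 of the 10 root markers and 3 of the 4 RHS genes (named for root hair specific expression) at 5 CPM. It also held 15 of the 45 extensins and related proline-rich proteins at 5 CPM. Root hairs are tubular outgrowths of root epidermal cells that elongate at the tip. Only 33 of the 131 also reached 5 CPM in a soil library. Of the root markers, EXPA18 (AT1G62980), a root hair expansin, fell from 8.30 to 1.00 CPM in Col-0 and stood at 9.59 and 9.99 CPM in lsm8-1. It was thus nearly equal in 3 libraries and low in Col-0 with NaCl, a difference of 2.27 and a ratio of ratios of 8.64 (5.85 to 13.0). EXPA7 (AT1G12560), another such expansin, went from 12.3 to 4.22 CPM in Col-0 and from 12.2 to 16.2 CPM in lsm8-1 (1.73). SHV2 (AT5G49270, also called COBL9, needed for tip growth) fell from 10.4 to 1.42 CPM in Col-0 and from 9.28 to 6.38 CPM in lsm8-1 (1.76). The nitrate transporter gene NRT2:1 (AT1G08090), which is not a root hair marker, was induced in lsm8-1 only. It stood at 38.9 and 42.4 CPM in Col-0 and went from 15 to 47.2 CPM in lsm8-1 (1.47), with a ratio of ratios of 2.88 (2.53 to 3.28). Of the markers inside 2-fold, the endodermis gene CASP1 had 0.46, PHT1;1 (a phosphate transporter) 0.59, PYK10 0.22, PHO1 (of phosphate loading into the xylem) 0.08, and the patterning genes SCR and SHR 0.29 and 0.06. All 10 root markers at 5 CPM were above 0, with a median of 0.52, and 4 of 10 had 1 or more (2.88% of all loci). EXPA7 and EXPA18 overlap opposite-strand genes, and the share of root in each library was not measured.

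The RHS genes were grouped after their values were seen. Of 9 with reads, 4 reached 5 CPM, and each of these had a difference above 1 (1 or more for 2.88% of all loci). RHS18 (AT5G22410) went from 6.76 to 0.334 CPM in Col-0 and from 6.83 to 5.93 CPM in lsm8-1 (2.36). RHS19 went from 22.9 to 2.25 CPM in Col-0 and from 30.9 to 17.0 CPM in lsm8-1 (2.05), RHS13 had 1.66 and RHS12 1.55. Summed over the 9, the RHS genes held 58.5 CPM in Col-0 and 71.6 CPM in lsm8-1 on GM, and 7.87 and 42.6 CPM with NaCl, so that the genotypes were close on GM and apart with NaCl.

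Extensins are hydroxyproline-rich glycoproteins that build a network in the cell wall. Of 45 extensins and related proline-rich proteins at 5 CPM, again grouped after their values were seen, 23 were repressed 2-fold in Col-0 (8.14% of all loci) and 6 in lsm8-1 (7.22%). The difference was 1 or more for 21 (2.88% of all loci) and -1 or less for 1 (1.29%), AT2G16630. It was above 0 for 37 and below 0 for 8, with a median of 0.88. EXT13 (AT5G35190) fell from 36.4 to 1.22 CPM in Col-0 and from 60.5 to 26.4 CPM in lsm8-1, a difference of 2.91 and a ratio of ratios of 13.0 (9.50 to 18.2). PRP3 (AT3G62680), a root hair wall protein, fell from 32.1 to 2.28 CPM in Col-0 and from 45.3 to 28.6 CPM in lsm8-1 (2.69). EXT6 (AT2G24980) fell from 28.6 to 2.45 CPM in Col-0 and from 58.3 to 40.4 CPM in lsm8-1 (2.58). LRX1 (AT1G12040), a wall protein of root hairs with leucine-rich repeats, fell from 26.1 to 3.81 CPM in Col-0 and from 30.8 to 21.3 CPM in lsm8-1 (1.98). AT1G26250 fell strongly in both, from 311 to 4.89 CPM in Col-0 and from 109 to 6.38 CPM in lsm8-1 (1.83). Extensins share repeats, and only uniquely placed reads were counted, so values of near-identical members are uncertain.

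Families of other wall and secreted proteins held differences on both sides of 0. AGP22 (AT5G53250, an arabinogalactan protein) fell from 26.3 to 3.0 CPM in Col-0 and stood at 10.7 and 10.9 CPM in lsm8-1, a difference of 2.79 and a ratio of ratios of 8.92 (6.91 to 11.5). Of all loci, 2.88% had 1 or more and 1.29% had -1 or less. Of 25 arabinogalactan protein genes, grouped likewise after their values were seen as were the peroxidases, 6 had 1 or more and 0 had -1 or less. In all, 18 of the 25 were above 0 and 7 below, with a median of 0.16. Of 50 class III peroxidase genes, whose products act on phenolics and hydrogen peroxide in the wall, 17 had 1 or more and 2 had -1 or less, while 36 were above 0 and 14 below, with a median of 0.55. AT3G49960 fell from 9.31 to 0.695 CPM in Col-0 and stood at 13.1 and 12.7 CPM in lsm8-1 (2.56). AT4G26010 fell in both, from 36.7 to 3.03 CPM in Col-0 and from 31.9 to 14.1 CPM in lsm8-1 (2.11), and has an overlapping opposite-strand gene. PRX52 (AT5G05340) rose in both, from 6.53 to 24.1 CPM in Col-0 and from 0.985 to 38.1 CPM in lsm8-1 (2.56), and PER4 (AT1G14540) rose from 18.4 to 113 CPM in Col-0 and from 8.74 to 216 CPM in lsm8-1 (1.93). Of the wall loosening list, the xyloglucan enzyme genes XTH18 (1.32), XTH15 (1.21) and XTH16 (1.13) had 1 or more and EXPA10 -1 or less, among 18 genes.

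The thalianol cluster, chosen after its values were seen, is a set of neighbouring genes on chromosome 5 that make root triterpenes. Its genes were lower with NaCl in both genotypes and more so in Col-0. THAS1 (AT5G48010), the cyclase that makes thalianol, went from 18.8 to 3.0 CPM in Col-0 and from 6.51 to 3.52 CPM in lsm8-1 (1.57). CYP705A5 (AT5G47990), a cytochrome P450 that modifies it, went from 132 to 17.0 CPM in Col-0 and from 56.6 to 34.7 CPM in lsm8-1 (2.2). The acyltransferase gene AT5G47980 went from 18.0 to 1.33 CPM in Col-0 and from 3.84 to 2.89 CPM in lsm8-1 (2.71), and AT5G47950 had 1.19. These 4 genes, unlike the RHS genes, were lower in lsm8-1 on GM (median -1.30).

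The 2 loci with opposite directions both belong to synthesis of indole-derived defence compounds, which start from tryptophan. AT1G26380 (FOX1, a berberine bridge enzyme-like oxidase of the indole carbonyl nitrile route) fell from 10.1 to 2.78 CPM in Col-0 and rose from 1.27 to 9.66 CPM in lsm8-1. The order of the genotypes was reversed between GM and NaCl, a difference of 3.79 and a ratio of ratios of 27.6 (18.3 to 42.0). CYP71A12 (AT2G30750), a P450 that makes indole-3-acetonitrile for these compounds, fell from 24.8 to 5.11 CPM in Col-0 and rose from 7.31 to 21.1 CPM in lsm8-1, a difference of 3.49 and a ratio of ratios of 14.0 (11.2 to 17.5). Of 12 genes of this metabolism, these 2 included and grouped after their values were seen, 8 had 1 or more (2.88% of all loci). In the other direction, 0 had -1 or less (1.29% of all loci). PAD3 (AT3G26830), the last enzyme of camalexin synthesis, rose from 10.6 to 24.8 CPM in Col-0 and from 8.29 to 71.9 CPM in lsm8-1 (1.82). CYP81F2 (AT5G57220), which modifies indole glucosinolates, fell from 23.8 to 6.28 CPM in Col-0 and stood at 6.86 and 6.56 CPM in lsm8-1 (1.71). The methyltransferase genes IGMT1, IGMT3 and IGMT2 had 2.38, 1.99 and 1.87, while the shared first P450 genes CYP79B2 and CYP79B3 had -0.40 and 0.21. The IGMT genes are close copies, so reads that match several of them may be missing.

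The 5 leading loci of the 109 induced in lsm8-1 only had different annotations. GLIP1 (AT5G40990), a secreted lipase of defence, stood at 0.522 and 0.389 CPM in Col-0 and went from 0.254 to 6.95 CPM in lsm8-1 (2.80). SIB1 (AT3G56710), a sigma factor binding protein that acts with WRKY factors, went from 2.76 to 5.31 CPM in Col-0 and from 1.02 to 21.9 CPM in lsm8-1, a difference of 2.76 and a ratio of ratios of 11.2 (7.15 to 17.8). The MATE efflux gene AT1G66780 went from 0.406 to 0.723 CPM in Col-0 and from 0.254 to 8.25 CPM in lsm8-1 (2.59). GLIP1 and AT1G66780 reached 5 CPM only in lsm8-1 with NaCl and so passed the filter through that library alone. Their lower levels elsewhere are therefore no separate result. SIB1 was above 5 CPM with NaCl in both genotypes. PRK5 (AT1G50610, a receptor-like kinase) had 0 reads in Col-0 on GM, where 3 counts are 0.0870 CPM, 0.0318 CPM in lsm8-1 on GM, and 0.389 and 6.77 CPM with NaCl (2.44). PRK5 too passed the filter through lsm8-1 with NaCl alone, and its rise in Col-0 was inside 2-fold only with the pseudocount. AT4G20820, another berberine bridge enzyme-like gene, went from 13.0 to 9.06 CPM in Col-0 and from 6.64 to 24.0 CPM in lsm8-1 (2.19). Of the listed salicylic acid genes, FMO1 (AT1G19250, of N-hydroxypipecolic acid synthesis) rose from 1.02 to 9.0 CPM in lsm8-1 against 1.04 to 2.47 in Col-0 (1.55), and SAG101 had 1.00. FMO1 likewise reached 5 CPM only in lsm8-1 with NaCl, and its rise in Col-0 was inside 2-fold only with the pseudocount. PR5 (AT1G75040) had -1.44, so the 8 genes of this list did not share a direction. Of the 8, 2 had 1 or more (2.88% of all loci) and 1 had -1 or less (1.29%). AOC1 (AT3G25760, allene oxide cyclase of jasmonate synthesis) went from 28.8 to 40.1 CPM in Col-0 and from 27.8 to 154 CPM in lsm8-1 (1.97). It was the 1 of 16 jasmonate genes past the limit, near the share of all loci (2.88% at 1 or more), so this is no result about the list.

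Loci induced in both genotypes and more in lsm8-1 were led by AT3G25573, PRX52 and AT2G15780. The uncharacterized gene AT3G25573 had 0 reads in Col-0 on GM, 0.191 CPM in lsm8-1 on GM, 1.5 CPM in Col-0 and 19.4 CPM in lsm8-1 with NaCl (2.77). AT3G25573 reached 5 CPM only in lsm8-1 with NaCl, so its lower levels elsewhere are no separate result. The cupredoxin gene AT2G15780 went from 0.290 to 6.67 CPM in Col-0 and from 0.381 to 47.3 CPM in lsm8-1, a difference of 2.56 and a ratio of ratios of 5.39 (2.06 to 13.8). Phi class glutathione transferase genes, grouped after their values were seen, had 3 of 9 at 1 or more (2.88% of all loci). These were GSTF6 (2.2), GSTF7 (1.81) and GSTF2 (1.47), all lower in lsm8-1 on GM.

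Flavonoid and anthocyanin synthesis is the pathway of red and purple pigments. Of its 16 listed genes, 6 had a difference of 1 or more (2.88% of all loci) and 1 had -1 or less (1.29%). In all, 11 were above 0 and 5 below, with a median of 0.51. DFR (AT5G42800, dihydroflavonol reductase) went from 2.47 to 24.0 CPM in Col-0 and from 10.2 to 239 CPM in lsm8-1, a difference of 1.57 and a ratio of ratios of 2.42 (1.86 to 3.11). UGT75C1 (AT4G14090), an anthocyanin glucosyltransferase, went from 3.45 to 24.8 CPM in Col-0 and from 7.24 to 153 CPM in lsm8-1 (1.69). The hydroxylase gene TT7 (AT5G07990) went from 9.43 to 12.4 CPM in Col-0 and from 10.9 to 34.0 CPM in lsm8-1 (1.2). LDOX (1.68), UF3GT (1.34) and AT5MAT (1.31) passed the limit too, but their ratios of ratios, 1.99 (0.446 to 6.98), 1.36 (0.812 to 2.2) and 1.63 (0.960 to 2.67), had intervals that held 1, and all of them were low on GM. PAP1 (AT1G56650), a MYB factor that activates these genes, went from 0.725 to 86.7 CPM in Col-0 and from 3.40 to 104 CPM in lsm8-1, so it was higher in lsm8-1 on both plates and its response smaller (-1.1). UGT75C1 overlaps an opposite-strand gene.

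Few loci fell further in lsm8-1. Of the 15 repressed in lsm8-1 only, AT1G03820, an E6-like protein gene, went from 18.2 to 27.8 CPM in Col-0 and from 34.1 to 12.6 CPM in lsm8-1, a difference of -1.95 and a ratio of ratios of 0.242 (0.207 to 0.282). ZIF1 (AT5G13740), a vacuolar transporter of zinc and iron homeostasis, stood at 61.4 and 65.0 CPM in Col-0 and went from 129 to 47.8 CPM in lsm8-1 (-1.5). The deaminase gene AT4G29610 went from 2.93 to 1.06 CPM in Col-0 and from 12.2 to 1.17 CPM in lsm8-1 (-1.67). The MATE gene AT5G19700 went from 0.957 CPM to 0 reads in Col-0 and from 5.43 to 0.0602 CPM in lsm8-1 (-1.63). AT4G29610 and AT5G19700 reached 5 CPM only in lsm8-1 on GM, so their lower levels elsewhere are no separate result. Their falls in Col-0 were inside 2-fold only with the pseudocount. ZIF1, AT4G29610 and AT5G19700 were over 2-fold higher in lsm8-1 on GM and closer to Col-0 with NaCl. AT1G31690, a copper amine oxidase gene that fell in both, differed from them in being lower in lsm8-1 on both plates: 32.6 and 17.6 CPM on GM, and 11 and 1.47 CPM with NaCl (-1.42).

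Iron-deficiency genes made up 4 of the 10 loci repressed in both and more in lsm8-1. The transcription factor gene bHLH39 (AT3G56980), which acts with FIT in iron uptake, fell from 11 to 3.86 CPM in Col-0 and from 60.3 to 8.28 CPM in lsm8-1 (-1.42). FRO2 (AT1G01580), the ferric reductase of the root surface, fell from 20.1 to 2.86 CPM in Col-0 and from 50.2 to 3.07 CPM in lsm8-1 (-1.21). CYP82C4 (AT4G31940), a P450 of coumarin synthesis, fell from 4.67 to 1.36 CPM in Col-0 and from 14.6 to 0.963 CPM in lsm8-1 (-1.73). FRO2 and CYP82C4 were higher in lsm8-1 on GM and about equal with NaCl. BHLH100 (-1.05) turned over without a pseudocount, with a ratio of ratios of 2.47 (0.887 to 9.53), and it was near 0 in Col-0 with NaCl (0.111 CPM). The ubiquitin ligase gene BTS (AT3G18290, a repressor of the iron response) went from 221 to 152 CPM in Col-0 and from 582 to 191 CPM in lsm8-1 (-1.07). F6'H1 (AT3G13610), the first enzyme of coumarin synthesis, went the other way (1.56) and overlaps an opposite-strand gene. Over the 17 genes of the list, 5 had -1 or less (1.29% of all loci), 1 had 1 or more (2.88%) and the median was -0.03. Of the 17 genes, 8 also reached 5 CPM in a soil library. The part of the root marker values given above was not tested.

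The alternative oxidases of mitochondria, which bypass part of the respiratory chain, differed from each other. AOX1A (AT3G22370) went from 41.4 to 256 CPM in Col-0 and from 345 to 805 CPM in lsm8-1, a difference of -1.38 and a ratio of ratios of 0.376 (0.354 to 0.400). AOX1D (AT1G32350) went from 0.174 to 11.6 CPM in Col-0 and from 0.413 to 68.3 CPM in lsm8-1 (2.19), with a ratio of ratios of 2.48 (0.767 to 7.03) that rests on few reads on GM. The efflux gene DTX3 (AT2G04050) went from 1.25 to 69.4 CPM in Col-0 and from 45.3 to 386 CPM in lsm8-1 (-1.91). AOX1A and DTX3 were higher in lsm8-1 on both plates, and their smaller response went with a higher level on GM. Of the 14 genes of the mitochondrial stress list, 3 had a difference above 0 and 11 below, with a median of -0.28. The difference was 1 or more for 1 of them (2.88% of all loci) and -1 or less for 2 (1.29%). All 14 were higher in lsm8-1 on both plates, with medians of 1.65 on GM and 1.2 with NaCl. The list was chosen with earlier results of these data known, so this shared direction is no separate result.

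The remaining leading loci follow. WSD1 (AT5G37300, of wax ester synthesis) went from 0.464 to 16 CPM in Col-0 and from 1.81 to 5.03 CPM in lsm8-1 (-2.44). The uncharacterized gene AT4G12735 went from 0.203 to 33.2 CPM in Col-0 and from 22.5 to 131 CPM in lsm8-1 (-2.34), higher in lsm8-1 on both plates. Among loci repressed in both, IMS2 (AT5G23020, also called MAM3, of aliphatic glucosinolate chain elongation) fell from 79.6 to 2.5 CPM in Col-0 and from 116 to 22.3 CPM in lsm8-1, a difference of 2.19 and a ratio of ratios of 6.10 (4.87 to 7.72). CYP79F2, which acts after it, had 1.35, and the other 11 of 13 aliphatic glucosinolate genes stayed inside 2-fold (1 or more for 2.88% of all loci). Where neither response reached 2-fold, the legume lectin gene AT3G15356 went from 66.5 to 34.5 CPM in Col-0 and from 27.8 to 50.2 CPM in lsm8-1 (1.76). AT1G27670 (1.72) and the receptor kinase-related gene AT3G22060 (1.65) crossed in the same manner.

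**Figure D5:**
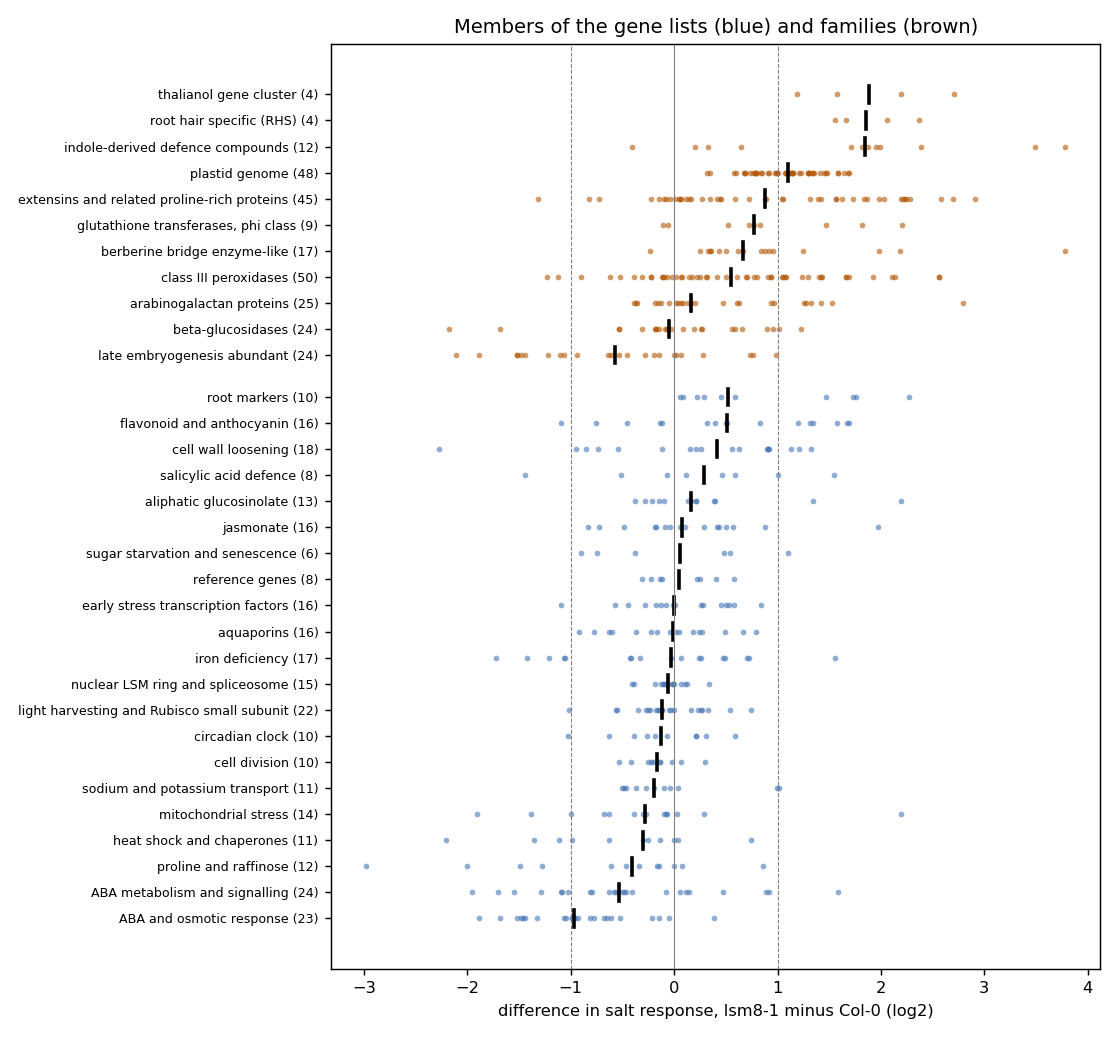
Difference in salt response (lsm8-1 minus Col-0, log2) of each gene at 5 CPM or more in 21 gene lists and 11 families, with the number of such genes in brackets and the median as a black bar. Dashed lines mark a 2-fold difference. The ABA and osmotic list has the lowest median (-0.96) and the thalianol cluster the highest (1.89), with the reference genes near 0 (0.05).

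Other lists had 1 gene or none past the limit, which in lists of this size is near the 2.88% and 1.29% of all loci and is no result about them. No gene passed the limit in either direction among 16 aquaporins, 10 cell division genes, 15 genes of the nuclear LSM ring and spliceosome and 8 reference genes, with medians of -0.01, -0.17, -0.06 and 0.05. Inside the limit the aquaporin genes ranged from -0.92 to 0.79. Of 11 sodium and potassium transport genes, the stelar potassium channel gene SKOR alone passed (1.02). Of 22 light harvesting and Rubisco small subunit genes CAB2 passed (-1.02), of 10 clock genes PRR5 (-1.03), and of 6 starvation and senescence genes EXO (1.1). CAB2 has near-identical copies, and SKOR and XTH15 overlap opposite-strand genes. The flower and seed marker list had 1 of 7 genes at 5 CPM, and its summed level was 3.75 to 13.5 CPM.

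Plastid-encoded genes, grouped after their values were seen, shared a direction. All 48 at 5 CPM had a difference above 0, 28 of them 1 or more (2.88% of all loci), with a median of 1.1. Of 78 genes, 27 reached 5 CPM in Col-0 and 43 in lsm8-1 on GM, and 22 and 48 with NaCl. The filter thus leaned to members high in lsm8-1 with NaCl, and the shared direction is not a fully separate result. In Col-0, 0 of 48 were induced 2-fold and in lsm8-1 13 were, against 10.6% of all loci in each genotype. ATCG00120 went from 20.5 to 17.9 CPM in Col-0 and from 38.9 to 105 CPM in lsm8-1 (1.59). Organelle reads took 0.0816% of the library in Col-0 and 0.188% in lsm8-1 on GM, and 0.0733% and 0.318% with NaCl. The share was thus highest in lsm8-1 with NaCl, and the amount of organelle RNA that entered each library was not measured. The 441 loci include these 28 and 1 mitochondrial gene, and 412 nuclear loci.

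Loci with a higher salt ratio in lsm8-1 differed from all loci in structure and level, as a description. By RefSeq annotation, 31.3% of the 412 nuclear loci had 1 exon, against 23.9% of the 197 with a lower ratio and 14.6% of all annotated loci. A single transcript model was listed for 94.3% and 82.7% of the 441 and 197 loci, against 83.0% of all. The highest of the 4 levels had a median of 20.4 CPM for the 441, 32.5 CPM for the 197 and 28.7 CPM for all loci. All 4 libraries reached 5 CPM at 158 of the 441 and 69 of the 197 loci, against 12105 of all 15308. Most of the 441 and of the 197 thus had at least 1 library under 5 CPM.

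In the cold experiment, which used other plants grown in soil, fewer loci passed the limits of the same subtraction. Of the 12212 loci at 5 CPM in both experiments, 104 (0.852%) had a cold difference of 1 or more and 37 (0.303%) of -1 or less. Of the 441 loci, 162 could be compared, and their median cold difference was 0.21, with 115 above 0, 11 at 1 or more and 0 at -1 or less. Of the 197, 124 could be compared, with a median of -0.14, 81 below 0, 4 at -1 or less and as many, 4, at 1 or more. The ABA and osmotic list, at -0.96 with salt, had a cold median of -0.02 over 20 genes. LTI30, with -1.52 under salt, had 1.16 under cold. The indole-derived defence genes had a cold median of 0.55 over 9 genes, where AT1G26380 had 1.13. Age was the same in both experiments, while medium, light and length of treatment were not, and the difference between the experiments was not tested.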

How the data were processed

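Per the labels' protocols, TRIzol-extracted RNA was DNase-treated and column-purified before standard Illumina libraries were made. Per the file headers, the deposited tables give the count of uniquely placed reads per transcript model in the salt experiment and per gene in the cold experiment. TAIR10 is named in the submitters' processing notes. Aligner and counter: not given in the sources used here. Strand and pooling of plants are not stated.

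Counts of models were summed per locus (2599 of 15308 loci had several models, where a shift in model use could change the sum), and unlisted loci were taken as 0. Libraries were scaled by TMM over the 4 salt libraries (edgeR 4.0.16, R 4.3.3). Log2 ratios used a pseudocount of 1 CPM, a filter of 5 CPM in at least 1 of 4 libraries and a limit of 2-fold. A count of 0 allows up to 3 counts, 0.0834 to 0.0953 CPM. Ratios of ratios carry no pseudocount and have exact conditional 95% intervals (scipy 1.17.1, numpy 2.4.6), which cover counting error only. With 4 libraries and 4 coefficients no model could be fitted to this difference, so no p-value is given. The computation was tested on simulated data.

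Named loci are the 5 largest differences of each class that responded in a single genotype, the 3 largest of each other class, all list members past the limit and LSM8. The class leaders were taken among loci past the limit also by library totals. This condition was not set for list members or LSM8. The 22 lists (356 genes, 296 at 5 CPM) and the members were chosen with earlier results of these data known, and 12 families were grouped after their values were seen. Names, products, exons and opposite-strand overlap come from RefSeq (TAIR10.1, matched by locus for 15245 of 15308 loci), and no coordinates or sequences were used. Alternatives were other scalings (DESeq2 1.42.0 size factors among them), pseudocounts, filters, model choices and limits. A planned motif description of promoters was not run.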

Additional observations from a re-analysis of the deposited data

Results flagged for a closer look

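Each of the following genes, among those named by the rule, was flagged because its salt response went opposite ways in the genotypes, with both ratios of NaCl to GM outside counting error in its own direction. There is 1 library per group, so that the difference between the genotypes was not tested. Values are the difference on log2(CPM + 1), then the ratios without a pseudocount.

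Indole-derived defence genes had the largest values. AT1G26380 had 3.79, with a ratio of 0.275 (0.218 to 0.345) in Col-0 and 7.60 (5.46 to 10.8) in lsm8-1. CYP71A12 had 3.49, with ratios of 0.206 (0.175 to 0.242) and 2.88 (2.48 to 3.36).

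Cell wall genes went both ways. EXPA10 had -2.28, higher with NaCl in Col-0 (2.94, 2.74 to 3.15) and lower in lsm8-1 (0.587, 0.546 to 0.630). EXPA7 had 1.73, with 0.344 (0.284 to 0.415) in Col-0 and 1.33 (1.16 to 1.52) in lsm8-1. Outside the wall loosening list, EXO of the starvation and senescence list had 1.1, with 0.893 (0.833 to 0.957) in Col-0 and 1.94 (1.82 to 2.07) in lsm8-1.

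Of genes with annotated families, the berberine bridge enzyme-like gene AT4G20820 had 2.19 (ratios of 0.696 and 3.61), the E6-like gene AT1G03820 -1.95 (1.52 and 0.368), the lectin gene AT3G15356 1.76 (0.519 and 1.81) and the receptor kinase-related gene AT3G22060 1.65 (0.576 and 2.08). The uncharacterized gene AT1G27670 had 1.72 (0.471 and 2.16). SAG101, a partner of EDS1 in immunity, had 1.00 (0.723 and 1.61), and the clock gene PRR5 had -1.03 (1.38 and 0.666).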

How the results depend on the processing

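Each group has 1 library, so no spread between replicates is known and no library could be left out. No paired analysis was possible because each group has 1 library. With library totals, DESeq2 size factors or TMM over all 8 libraries, with the model with most reads only, and with loci of 1 model only, all counts stayed within 1.5 times. Loci at 1 or more were 456, 445, 385, 440 and 416 in that order, and loci at -1 or less 205, 197, 178, 190 and 163. Of 90 named genes past the limit, 89, 90, 86 and 87 stayed past it with the 3 scalings and the model choice, 87 with a pseudocount of 0.25 CPM and 67 with 5 CPM, and all 90 kept their sign in each. For the class leaders among them, passing with library totals was a condition of choice. For counts that moved by over 1.5 times the cause was not tested, apart from fewer loci under stricter filters and limits. They are given in the order induced in Col-0 only, induced in lsm8-1 only, repressed in Col-0 only, repressed in lsm8-1 only, induced in both and more in Col-0, induced in both and more in lsm8-1, repressed in both and more in Col-0, repressed in both and more in lsm8-1, opposite directions, and neither. A pseudocount of 5 CPM gave 201 loci at 1 or more and 85 at -1 or less, and 22, 60, 62, 8, 50, 31, 17, 3, 1 and 32. A 1.5-fold limit gave 1142 and 830, and 165, 270, 270, 126, 354, 229, 234, 63, 24 and 237. A 3-fold limit gave 119 and 38, and 11, 31, 53, 3, 21, 11, 5, 0, 0 and 22. At 20 CPM or more the counts were 223 and 125, and those that moved were 20, 54, 59 and 5 for the first 4 classes, 45 induced in both and more in lsm8-1, 1 opposite and 31 neither. Without a filter 63 loci were induced in Col-0 only, 29 repressed in lsm8-1 only and 161 neither. A pseudocount of 0.25 CPM gave 94 repressed in both and more in Col-0 and 4 opposite. With the other genotype inside 0.5 (log2) the first 4 classes held 23, 65, 77 and 6. Chosen after seeing the data, a limit to loci also at 5 CPM in soil gave 162 and 124, with 24, 52 and 33 in the first 3 classes, 68, 28, 17 and 6 in the classes that responded in both, and 44 neither. List medians moved by over 0.1 with a pseudocount of 5 CPM for ABA and osmotic response (-0.69), ABA metabolism and signalling (-0.41), proline and raffinose (-0.29), salicylic acid defence (0.18), iron deficiency (-0.43), mitochondrial stress (-0.029) and sugar starvation (-0.064), and with 0.25 CPM for mitochondrial stress (-0.60) and heat shock (-0.48). At a few reads per library a difference on this scale rests mainly on the pseudocount.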
